A study of Mus musculus with 9 samples.

Results

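The matrix metalloproteinases (MMPs), the ADAM and ADAMTS proteases, their ADAMTS-like relatives and the tissue inhibitors of metalloproteinases (TIMPs) were described in 9 RNA-seq libraries labelled as the mouse mammary carcinoma line 4T1. Genes were taken by name: every row of the deposited table whose Ensembl identifier belongs to a mouse symbol beginning Mmp, Adam, Adamts, Adamtsl or Timp, followed directly by a digit. The rule matched 84 symbols. Mmp1a was left out as a pseudogene, because GENCODE M21 lists it as a polymorphic pseudogene, although RefSeq lists it as protein coding, and its level ran from 0 to 0.440 FPKM. The remaining 83 genes, of 52550 rows in the table, were 22 MMPs, 33 ADAMs, 19 ADAMTS, 5 ADAMTS-like genes and 4 TIMPs.

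The study compared 3 groups of 3 libraries each: a control group, a group given PD-1 treatment, and a group given LY500307, an agonist of estrogen receptor beta, together with PD-1 treatment (LY500307+PD-1). PD-1 is an inhibitory receptor of T cells, and the labels name the PD-1 treatment without naming its agent. The titles put 3 libraries in the PD-1 group, but the treatment label of replicate 2 reads PD-2 and that of replicate 3 reads PD-3, so what those libraries received rests on their titles. The labels call all the samples 4T1 cells and give no genotype, dose, duration, host animal or age, and nothing in them says that the replicates were grown or taken separately, so each p-value reflects the spread of these libraries alone, which may be technical. 4T1 comes from a spontaneous mammary tumour of a BALB/c mouse and carries no engineered allele by name in the labels. Levels are taken as FPKM, a unit inferred from the values. In FPKM, fragments are divided by transcript length and by library depth, so that genes of different length can be set side by side.

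MMPs are zinc endopeptidases that are made as inactive precursors and cut collagens, laminins and other matrix proteins, as well as other proteases and signalling proteins. Most ADAMs sit in the cell membrane, where the active ones cut the outer parts off growth factor precursors, receptors and adhesion molecules. ADAMTS enzymes are secreted and process procollagens and proteoglycans, and ADAMTS-like proteins share their carboxy-terminal domains but lack the protease domain. TIMPs bind the active site of MMPs and, in part, of ADAMs and ADAMTS enzymes. In mammary tumours these enzymes come from tumour cells and from fibroblasts, macrophages and neutrophils alike.

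Before the results, some features of the libraries bear on them. The FPKM values of a library summed to between 348764 and 370214, and between 20701 and 21480 rows were above 0. Of 8 epithelial markers, 7 were at 1 FPKM or more in every library, and their summed level ran from 1494 to 3562 FPKM. The label names a cell line alone, and the markers go against that. The 9 macrophage markers were all at 1 FPKM or more in every library and summed to 875 to 2779 FPKM, C1qa alone reaching 268 to 843. Of 10 fibroblast markers, 9 were at 1 FPKM or more in every library, and markers summed to 31.2 to 74.1 FPKM for endothelium, 17.2 to 43.0 for T and NK cells and 25.1 to 137 for erythroid cells. The part of these cells in the levels below was not tested. In bulk RNA, fewer cells of a type and less RNA per cell cannot be told apart. LY500307+PD-1 replicate 2 stood apart: its 5 skeletal muscle markers summed to 98.0 FPKM against 12.2 to 27.0 in the other libraries, and its 4 adipocyte markers to 43.2 FPKM against 1.54 to 7.34. Where leaving it out moved the log2 fold change of a protease or inhibitor named in a comparison by over 1.5 times, both values are given.

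The inhibitors and a small set of MMPs carried most of the summed level. Over the 9 libraries, Timp2, Mmp3 and Timp1 together made up 45.4% of the summed FPKM of the 83 genes, the leading 10 genes made up 79.5% and the leading 20 made up 94.0%. The summed level of all 83 genes ran from 675 FPKM in control replicate 1 to 1089 FPKM in control replicate 2, so both ends lay in the same group. The group means of that sum were 835 ± 223 FPKM in control, 805 ± 92.7 under PD-1 and 829 ± 140 under LY500307+PD-1 (SD, n = 3 each). The differences between group means were smaller than the spread within any group. By class, the summed level ran from 270 to 603 FPKM for MMPs, from 231 to 314 for TIMPs, from 111 to 146 for ADAMs, from 36.8 to 52.2 for ADAMTS and from 7.33 to 12.8 for ADAMTS-like genes.

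**Figure D1:**
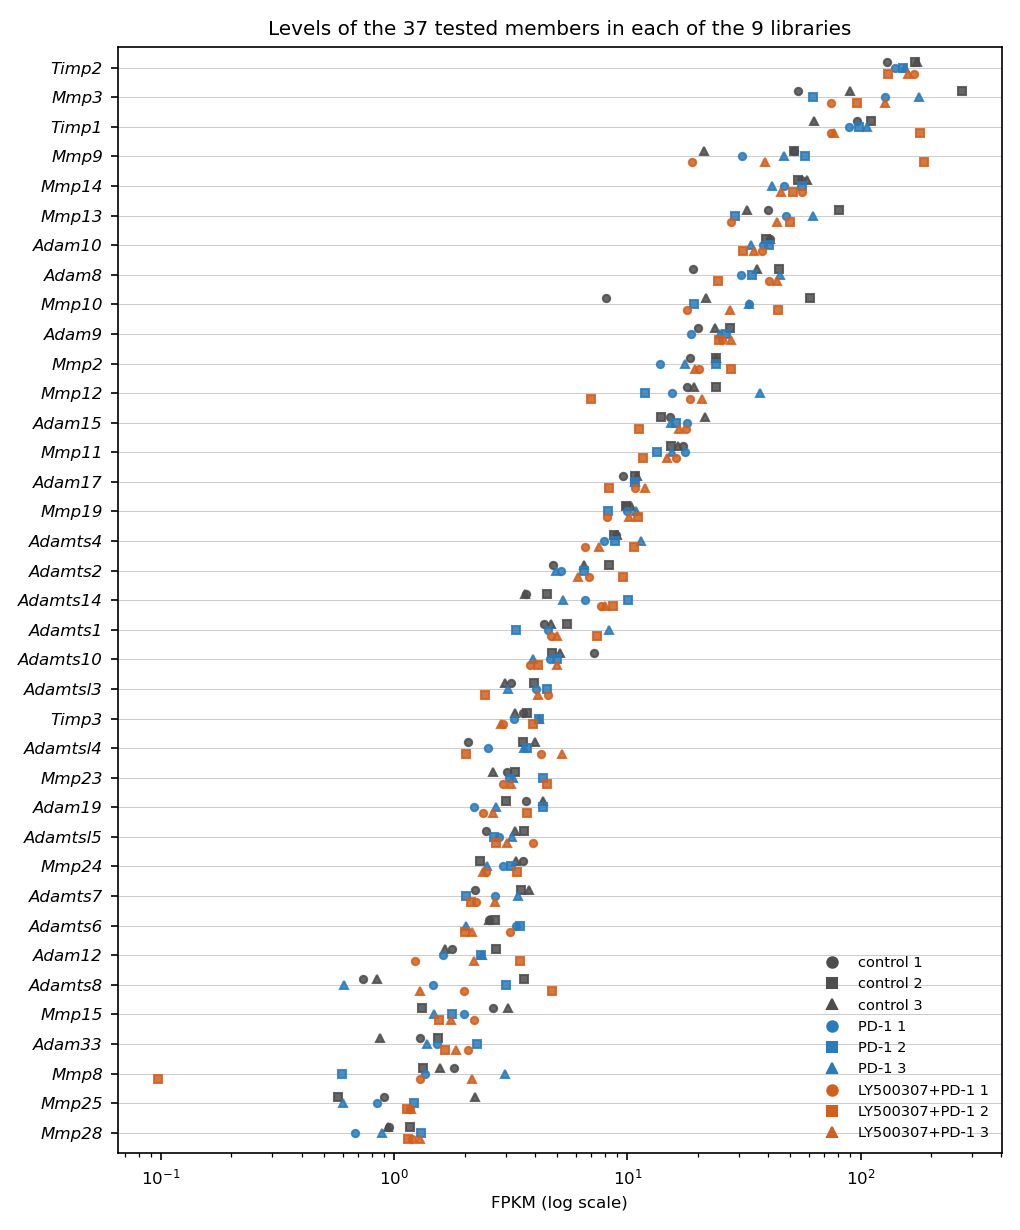
Level of each of the 37 tested genes (rows, highest mean at the top) in each of the 9 libraries, in FPKM on a log axis, coloured by group. Timp2 and Adam10 have tight rows of points, and Mmp3, Mmp9, Mmp10 and Mmp8 spread widely within groups.

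Timp2 (ENSMUSG00000017466.9; chromosome 11, 118301069 to 118355740, minus strand, GRCm38) had the highest mean level. The TIMP2 protein inhibits MMPs and also helps the membrane enzyme MMP14 to activate pro-MMP2. It measured 130, 171 and 175 FPKM in control, 141, 152 and 154 under PD-1, and 170, 131 and 159 under LY500307+PD-1, and the groups overlapped throughout. Timp1 (chromosome X, 20870166 to 20874735, plus strand), an inducible inhibitor that binds MMP9 strongly, stood at 96.7, 111 and 63.1 FPKM in control, 89.3, 98.1 and 106 under PD-1, and 74.7, 179 and 77.1 under LY500307+PD-1. The highest Timp1 value belonged to LY500307+PD-1 replicate 2, and the other members of its group were lower than every PD-1 library. Timp3 (chromosome 10, 86300372 to 86349506, plus strand), the inhibitor that stays bound to matrix and acts on ADAM17 and ADAMTS enzymes, was far lower, at 2.87 to 4.18 FPKM over all 9 libraries. Timp4 was above 0 in only 2 libraries, both of LY500307+PD-1, at 0.0496 and 0.0196 FPKM.

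The gelatinases and the membrane-bound collagenase differed in how steady they were. Mmp14 (chromosome 14, 54431612 to 54445364, plus strand), a membrane-anchored collagenase, stood at 55.5, 54.0 and 58.6 FPKM in control, 46.8, 56.2 and 41.9 under PD-1, and 55.9, 51.4 and 45.5 under LY500307+PD-1. Its target Mmp2 (chromosome 8, 92827291 to 92853420, plus strand), a gelatinase, ran from 13.8 to 27.9 FPKM. The other gelatinase, Mmp9 (chromosome 2, 164940780 to 164955850, plus strand), stood at 51.7, 51.9 and 21.2 FPKM in control, 31.1, 57.7 and 46.8 under PD-1, and 19.0, 186 and 38.8 under LY500307+PD-1. Both its lowest and its highest values lay under LY500307+PD-1, 9.81-fold apart. The ratio of Mmp9 to Timp1 was 1.04 in LY500307+PD-1 replicate 2 and lay between 0.254 and 0.589 in the other libraries.

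Of the other leading MMPs, Mmp11, a stromelysin known from the stroma of breast carcinomas, ran from 11.6 to 17.6 FPKM, and Mmp19 from 8.15 to 11.1 FPKM. Their ranges were narrow beside those of the stromelysin Mmp3, which ran from 53.8 to 272 FPKM, and of Mmp10, which ran from 8.06 to 60.8 FPKM. Mmp23, Mmp24, Mmp15, Mmp8, Mmp25 and Mmp28 had means between 1.06 and 3.36 FPKM.

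Among the ADAMs, the established sheddases were present at steady levels. Adam10 (chromosome 9, 70678997 to 70780229, plus strand), which cuts Notch receptors, E-cadherin and other surface proteins, had the highest ADAM level, with a mean of 37.5 FPKM over the 9 libraries. Adam17, which releases TNF and several EGF receptor ligands, ran from 8.34 to 11.9 FPKM. Adam8 (chromosome 7, 139978932 to 139992562, minus strand), which is made by leukocytes and by some carcinomas, ran from 19.1 FPKM in control replicate 1 to 45.2 FPKM in PD-1 replicate 3. Adam9 ran from 18.8 to 27.7 FPKM and Adam15 from 11.3 to 21.5 FPKM. Adam19, Adam12 and Adam33 had means of 3.23, 2.15 and 1.60 FPKM.

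The secreted ADAMTS enzymes were lower, and none had a mean of 10 FPKM. Of the procollagen N-proteinases, which remove the amino-terminal propeptide of fibrillar procollagens, Adamts2 ran from 4.79 to 9.56 FPKM, Adamts14 from 3.63 to 10.1 FPKM, and Adamts3 was listed at 0 in every library. Of the enzymes that cut aggrecan and versican, Adamts4 ran from 6.59 to 11.4 FPKM, Adamts1 from 3.33 to 8.32 FPKM and Adamts5 only from 0.153 to 0.979 FPKM. Adamts10, which is linked to fibrillin microfibrils, ran from 3.82 to 7.22 FPKM. The 3 leading ADAMTS-like genes, Adamtsl3, Adamtsl4 and Adamtsl5, had means of 3.66, 3.45 and 3.08 FPKM.

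The remaining genes were low or at 0. In all, 18 of the 83 genes were listed at 0 in every library: Adam2, Adam6a, Adam6b, Adam7, Adam20, Adam24, Adam25, Adam26a, Adam26b, Adam29, Adam34, Adam39, Adamts3, Adamts13, Adamts18, Adamts19, Mmp7 and Mmp20. Several of the ADAMs among them, such as Adam2, encode proteins of sperm, Adamts13 cuts von Willebrand factor, and Mmp20 belongs to developing enamel. A further 28 genes were above 0 in at least 1 library, 12 of them in all 9 libraries and 16 in some, but did not reach 1 FPKM in 3 libraries. Their means were at most 0.682 FPKM and their highest single value was 1.01 FPKM, for Adam1a. The 37 genes that reached 1 FPKM in at least 3 libraries entered the tests: 15 MMPs, 8 ADAMs, 8 ADAMTS, 3 ADAMTS-like genes and 3 TIMPs.

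A compact cluster on chromosome 9 (7272514 to 7699585, GRCm38, a span of 427 kb) held 9 of the 22 MMP genes, 8 of them on the plus strand, in the order Mmp13, Mmp12, Mmp1b, Mmp3, Mmp10, Mmp8, Mmp27, Mmp20 and Mmp7. Of these, Mmp13, Mmp12, Mmp3, Mmp10 and Mmp8 were high enough to be tested, while Mmp20 and Mmp7 were at 0 throughout. The promoters of Mmp3, Mmp10, Mmp13 and Mmp12, the 4 tested genes of the cluster in which the motifs below were found, are shown with that of Adamts14, to which the comparisons turn and in which they were not found. Each runs from 250 bases before the RefSeq start to 50 bases after it (GRCm38.p6). Capitals mark 2 motifs. The motif of the factor AP-1 is TGAGTCA, searched on both strands, so that it also appears as its reverse complement. The TATA box is TATAAA, searched on the strand of the gene only.

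Mmp3, chr9:7445572-7445871, plus strand: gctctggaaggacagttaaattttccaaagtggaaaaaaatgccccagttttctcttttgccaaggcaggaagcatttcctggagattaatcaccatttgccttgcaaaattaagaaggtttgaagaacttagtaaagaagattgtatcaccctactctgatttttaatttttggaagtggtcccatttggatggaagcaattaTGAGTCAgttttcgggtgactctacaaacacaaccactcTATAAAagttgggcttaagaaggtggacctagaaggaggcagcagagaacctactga
Mmp10, chr9:7502092-7502391, plus strand: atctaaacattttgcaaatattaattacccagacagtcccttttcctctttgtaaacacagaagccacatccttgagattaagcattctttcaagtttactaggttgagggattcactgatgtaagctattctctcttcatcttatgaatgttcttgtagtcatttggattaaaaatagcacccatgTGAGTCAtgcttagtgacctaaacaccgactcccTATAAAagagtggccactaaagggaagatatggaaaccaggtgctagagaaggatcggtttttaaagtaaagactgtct
Mmp13, chr9:7272264-7272563, plus strand: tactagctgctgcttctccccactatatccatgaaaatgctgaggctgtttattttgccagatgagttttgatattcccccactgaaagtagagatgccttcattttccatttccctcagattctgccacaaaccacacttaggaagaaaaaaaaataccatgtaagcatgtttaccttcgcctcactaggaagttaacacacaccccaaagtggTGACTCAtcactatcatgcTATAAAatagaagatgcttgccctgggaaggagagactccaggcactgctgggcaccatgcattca
Mmp12, chr9:7347124-7347423, plus strand: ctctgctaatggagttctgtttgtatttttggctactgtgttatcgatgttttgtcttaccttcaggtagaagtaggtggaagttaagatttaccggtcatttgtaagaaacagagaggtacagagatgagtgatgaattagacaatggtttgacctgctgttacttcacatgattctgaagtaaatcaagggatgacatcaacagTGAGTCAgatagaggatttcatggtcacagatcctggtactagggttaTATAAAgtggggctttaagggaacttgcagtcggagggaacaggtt
Adamts14, chr10:61273370-61273669, minus strand: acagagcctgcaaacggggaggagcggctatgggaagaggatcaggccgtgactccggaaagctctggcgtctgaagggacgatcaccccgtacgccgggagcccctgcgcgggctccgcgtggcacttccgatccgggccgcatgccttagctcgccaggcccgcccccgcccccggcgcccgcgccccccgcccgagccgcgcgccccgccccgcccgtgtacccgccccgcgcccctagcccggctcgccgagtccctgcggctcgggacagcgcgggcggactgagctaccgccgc

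The AP-1 motif began 46 bases before the RefSeq start in Mmp3, 63 in Mmp10 and 35 in Mmp13, and TATAAA began 7, 29 and 16 bases before it. Mmp12, whose order of libraries differed from theirs, held AP-1 44 bases before and TATAAA 4 bases after the start of the promoter shown, and neither in its other RefSeq promoter. Of 32851 RefSeq promoters of this length, 5.20% held the AP-1 motif and 8.32% held TATAAA. Of the 57 promoters used for 52 of the 83 genes, 15.8% and 19.3% held them. Chromosome 18, which holds Adamts19, was left out of these 57 but not of the 32851. In the chromosome 9 cluster the motifs were found in 6 of 9 genes (AP-1) and in 7 of 9 genes (TATAAA), over 11 promoters. Neither motif was found in the promoters of Mmp8 and Adamts14, and the Adamts14 promoter was 76.7% G or C against 40.0% for Mmp3. These are matches of letters within the window and not measured binding sites.

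Mmp3, a stromelysin that cuts proteoglycans and activates other pro-MMPs, stood at 53.8, 272 and 90.4 FPKM in control, 127, 62.6 and 178 under PD-1, and 74.8, 96.2 and 127 under LY500307+PD-1. Its neighbour Mmp10, a close relative, stood at 8.06, 60.8 and 21.8 FPKM in control, 33.1, 19.2 and 33.1 under PD-1, and 18.02, 44.1 and 27.6 under LY500307+PD-1. Mmp13, the interstitial collagenase of the mouse, stood at 40.2, 80.6 and 32.4 FPKM in control, 47.9, 29.0 and 62.3 under PD-1, and 27.8, 49.8 and 43.8 under LY500307+PD-1. All 3 were highest in control replicate 2, while Mmp3 and Mmp10 were lowest in control replicate 1 and Mmp13 in LY500307+PD-1 replicate 1, so the control group alone spanned the whole range of Mmp3 and Mmp10. The level of Mmp3 was 1.34 to 3.37 times that of Mmp13 in every library.

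The macrophage elastase Mmp12 and the neutrophil collagenase Mmp8 had a different order of libraries. Mmp12 stood at 18.1, 23.9 and 19.3 FPKM in control, 15.5, 11.9 and 36.9 under PD-1, and 18.5, 6.996 and 20.9 under LY500307+PD-1. Mmp8 stood at 1.79, 1.32 and 1.57 FPKM in control, 1.35, 0.595 and 2.98 under PD-1, and 1.29, 0.0966 and 2.14 under LY500307+PD-1. Both were highest in PD-1 replicate 3 and lowest in LY500307+PD-1 replicate 2. Mmp12 overlaps exons of Mmp1b on the opposite strand, and use of strand in the counting is not given in the sources used here, so reads of the pair may not be told apart. The same holds for 13 of the 37 tested genes in all, among them Timp3, Adam8, Adam15, Adam17, Mmp11, Mmp19 and Adamts4, which share exon positions with a gene on the opposite strand. Mmp1b was above 0 in only 4 libraries. Between near-identical stretches, 8.39% of the 50-base windows of Mmp3 and 8.37% of those of Mmp10 also occur in another gene, chiefly in each other, so a small part of their levels may be shared.

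**Figure D2:**
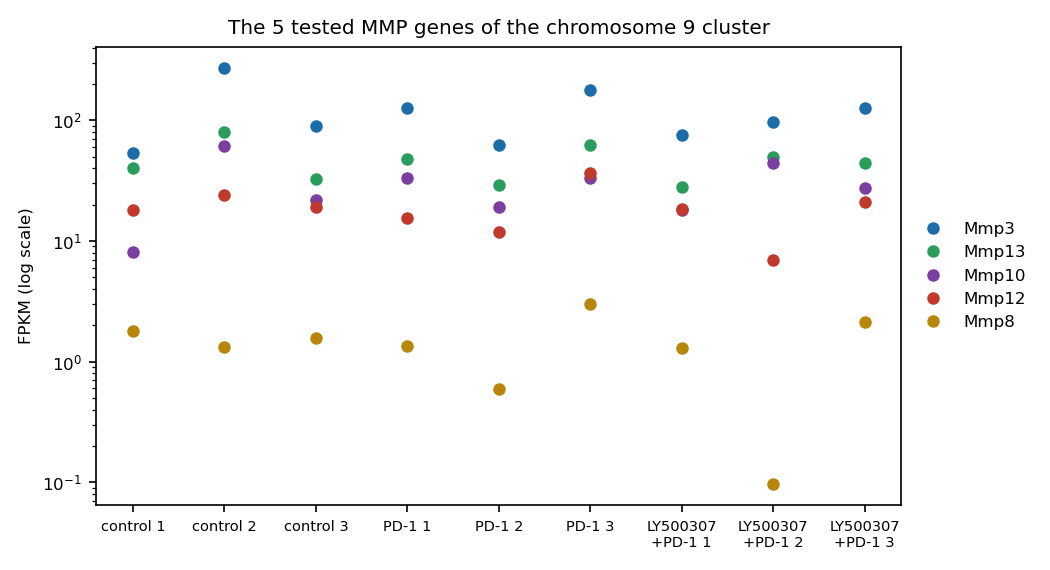
Levels of the 5 tested MMP genes of the chromosome 9 cluster in each of the 9 libraries, in FPKM on a log axis, with 1 colour for each gene. Mmp3, Mmp10 and Mmp13 peak in control replicate 2, and Mmp12 and Mmp8 peak in PD-1 replicate 3 and dip in LY500307+PD-1 replicate 2.

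Replicates of a group differed more in some of these genes than in genes at large. The SD within groups, on the log2(FPKM + 1) scale, had a median of 0.29 over the 15 tested MMPs, 0.23 over the 8 ADAMs, 0.25 over the 8 ADAMTS genes and 0.18 over the 3 TIMPs, beside 0.21 over all 13990 genes tested. It was 1.07 for Mmp9, 0.91 for Mmp10, 0.84 for Mmp3, 0.71 for Adamts8 and 0.67 for Mmp12. At the other end, it was 0.11 for Adam10, 0.15 for Adam17 and 0.15 for Mmp14. LY500307+PD-1 replicate 2 had the highest value of the 9 libraries for 8 of the 37 tested genes and the lowest for 9.

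PD-1 treatment alone was set against control to ask what the treatment does without LY500307. No gene of the 37 tested passed an adjusted p under 0.05 (limma on log2(FPKM + 1), Benjamini-Hochberg adjustment over all 13990 genes tested), and the share over all genes tested was 0%. At an unadjusted p under 0.05, 1 of the 37 genes passed, Adamts14, which is 2.70% of them beside 2.44% of all genes tested. The PD-1 and control libraries did not overlap for 1 gene, again Adamts14, while 6.68% of all genes tested had groups that did not overlap. The share of these genes called was therefore near or below that of genes at large. Of the 37 genes, 17 had a log2 fold change above 0 and 20 below 0, with a median of −0.03 beside −0.01 over all genes tested, where 48.3% were above 0.

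Adamts14 (ENSMUSG00000059901.12; chromosome 10, 61197112 to 61273438, minus strand, GRCm38) encodes a secreted procollagen N-proteinase. It measured 3.69, 4.52 and 3.63 FPKM in control, 6.55, 10.1 and 5.27 under PD-1, and 7.67, 8.64 and 8.04 under LY500307+PD-1. Each of the 6 treated libraries lay above each of the 3 control libraries. The share of all genes tested that were apart in this way was not counted. In PD-1 versus control the log2 fold change was 0.71 (SE 0.20, 95% interval 0.27 to 1.15, unadjusted p = 0.00557, adjusted p = 1 with limma), and the group means were 7.30 ± 2.50 and 3.95 ± 0.497 FPKM (SD, n = 3). Without PD-1 replicate 2 the log2 fold change was 0.48. Since no adjusted p passed, these values are given as a description. The gene has no overlapping neighbour in the annotation, and 0.212% of its 50-base windows occur in another gene.

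The genes next to Adamts14 by p-value in PD-1 versus control all had intervals that included 0. The membrane collagenase Mmp14 differed by −0.22 on the log2 scale (95% interval −0.51 to 0.07). For Adamts10 it was −0.27, for Adam33 0.28, for Mmp2 −0.28 and for Mmp15 −0.25. For Mmp23 it was 0.18, for Adam10 −0.10, for Adam19 −0.22 and for Adamts2 −0.18. Leaving out 1 library moved all 9 of these by over 1.5 times. The value nearest to 0 was −0.13 for Mmp14 (without PD-1 replicate 3), −0.11 for Adamts10 (without control replicate 1), 0.14 for Adam33 (without PD-1 replicate 2), −0.10 for Mmp2 (without PD-1 replicate 1) and −0.08 for Mmp15 (without control replicate 3). It was 0.06 for Mmp23 (without PD-1 replicate 2), −0.04 for Adam10 (without PD-1 replicate 3), −0.05 for Adam19 (without PD-1 replicate 1) and −0.02 for Adamts2 (without control replicate 2). For Timp2 the interval ran from −0.39 to 0.24, so changes larger than that in either direction lie outside it. The intervals of Mmp9, Mmp10 and Mmp3 were wide, and that of Mmp9 ran from −1.46 to 1.82.

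**Figure D3:**
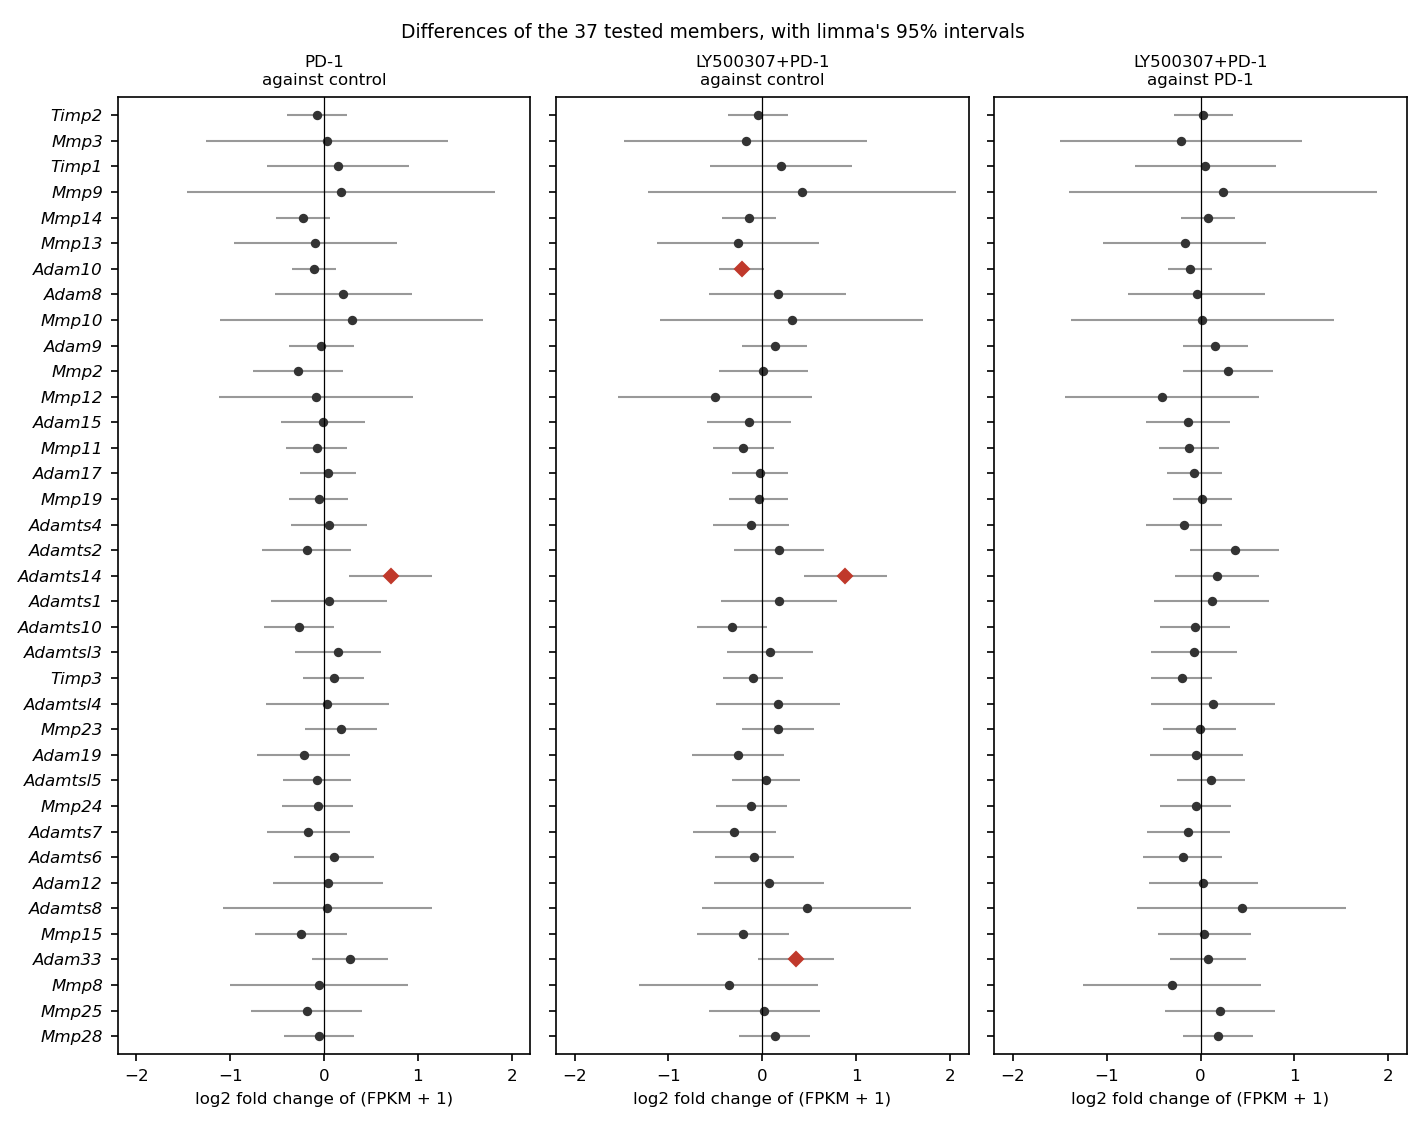
Log2 fold change of (FPKM + 1) for each of the 37 tested genes in the 3 comparisons, with the 95% interval of limma as a bar. Only the intervals of Adamts14 against control lie away from 0, and no gene passed an adjusted p under 0.05.

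LY500307 with PD-1 treatment was next set against the same 3 control libraries, so values of Adamts14 in this comparison and in the previous one share their controls. Again 0 of 37 genes passed the adjusted threshold, beside 0% of all genes tested. At an unadjusted p under 0.05, 1 of 37 passed, Adamts14, beside 4.01% of all genes tested. Groups did not overlap for 3 of 37 genes, which is 8.11% of them beside 7.94% of all genes tested: Adamts14 and Adam33 lay above control, as did 3.61% of all genes tested, and Adam10 lay below it, as did 4.33%. The split was 18 genes above 0 and 19 below, with a median log2 fold change of −0.03 beside 0.00 for all genes tested, of which 49.4% were above 0.

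For Adamts14 the log2 fold change in this comparison was 0.89 (SE 0.20, 95% interval 0.44 to 1.33, unadjusted p = 0.00146, adjusted p = 1 with limma), with a mean of 8.12 ± 0.488 FPKM under LY500307+PD-1 (SD, n = 3). Leaving out each library in turn gave 0.84 to 0.97, and over all alternatives the adjusted p ran from 0.406 to 1. Summed markers of other cells also stood apart between these groups. The 7 endothelial markers, 5 of them at 1 FPKM or more in every library and none at 0 throughout, summed to 31.2 to 41.3 FPKM in LY500307+PD-1 and 49.1 to 74.1 in control. By marker, these groups were apart for Pecam1, Cdh5, Cldn5 and Vwf, the last at only 0.384 to 0.773 FPKM over all libraries. They overlapped for Kdr, Tek and Emcn. The 5 skeletal muscle markers, 2 of them at 1 FPKM or more in every library and none at 0 throughout, summed to 19.1 to 98.0 FPKM and 12.9 to 15.3. Of these, Acta1 alone kept the groups apart, at 14.6, 65.6 and 13.2 FPKM against 2.44, 7.85 and 9.29 in control. The groups overlapped for Ckm, Myh4, Myl1 and Tnnt3. The part of these other cells in the level of Adamts14 was not tested.

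Adam10 stood at 40.9, 39.3 and 40.8 FPKM in control, 38.3, 40.4 and 34.0 under PD-1, and 37.9, 31.2 and 34.7 under LY500307+PD-1. The LY500307+PD-1 libraries were all below the control libraries, and the log2 fold change was −0.22 (SE 0.11, 95% interval −0.46 to 0.02, unadjusted p = 0.0674, adjusted p = 1 with limma). Adam33, a membrane ADAM of mesenchymal cells, stood at 1.28, 1.54 and 0.872 FPKM in control, 1.52, 2.26 and 1.38 under PD-1, and 2.07, 1.66 and 1.83 under LY500307+PD-1. Its log2 fold change against control was 0.36 (SE 0.18, 95% interval −0.04 to 0.77, unadjusted p = 0.0738), at levels where the added 1 FPKM shrinks the fold change, and it was 0.24 without control replicate 3.

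The other genes with the smallest p-values in LY500307+PD-1 versus control were Adamts10 (log2 fold change −0.33), Adamts7 (−0.30), Mmp11 (−0.20), Adam19 (−0.26), Mmp14 (−0.14), Mmp12 (−0.50) and Mmp23 (0.17). Without control replicate 1, Adamts10 was at −0.17, and without control replicate 3, Adamts7 was at −0.19 and Adam19 at −0.16. Without LY500307+PD-1 replicate 3, Mmp14 was at −0.06. Without LY500307+PD-1 replicate 2, Mmp11 was at −0.08, Adam19 at −0.40 and Mmp23 at 0.02. The elastase Mmp12 had the lowest of these values and rested on that library too: without it the log2 fold change was −0.04. The same library set the sign for the gelatinase Mmp9, whose log2 fold change was 0.42 with it (95% interval −1.22 to 2.06) and −0.49 without it. For the inhibitor Timp1 it was 0.20 with that library and −0.21 without it. For the neutrophil collagenase Mmp8 it was −0.36 with it and 0.07 without it.

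**Figure D4:**
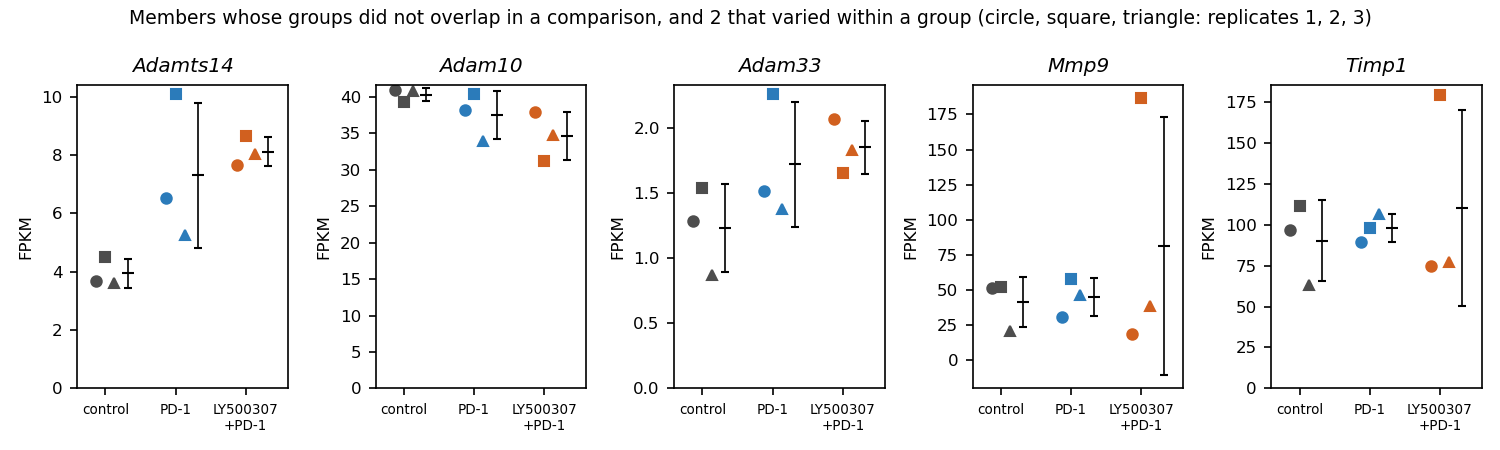
Levels in FPKM, on linear axes, of Adamts14, Adam10 and Adam33, whose groups did not overlap in a comparison, and of genes that varied within a group. Points are libraries (circle, square and triangle for replicates 1, 2 and 3), and bars are the group mean with the SD (n = 3). All treated libraries lie above the control libraries for Adamts14, and the high points of Mmp9 and Timp1 belong to LY500307+PD-1 replicate 2.

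Adding LY500307 to PD-1 treatment was compared with PD-1 treatment alone. None of the 37 genes passed the adjusted threshold (0% of all genes tested), and 0 of 37 passed an unadjusted p under 0.05, beside 2.84% of all genes tested. Groups did not overlap for 0 of 37 genes, beside 7.60% of all genes tested. The median log2 fold change was 0.02 beside 0.00, with 19 genes above 0 and 18 below, and 51.0% of all genes tested were above 0. For Adamts14 the log2 fold change was 0.18 (95% interval −0.27 to 0.62), so a difference between both treated groups was not detected and is bounded by that interval. The value was 0.41 without PD-1 replicate 2 and −0.01 without PD-1 replicate 3.

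The smallest p-value of this comparison belonged to the procollagen N-proteinase Adamts2, which stood at 5.17, 6.54 and 4.92 FPKM under PD-1 and 6.83, 9.56 and 6.11 in LY500307+PD-1 (log2 fold change 0.36, 95% interval −0.11 to 0.84, unadjusted p = 0.117). The groups overlapped, and without LY500307+PD-1 replicate 2 the log2 fold change was 0.20. Timp3 followed at −0.20 and Mmp2 at 0.29. The other genes nearest by p-value were Mmp28 (0.19), Adam10 (−0.11), Adam9 (0.16), Adamts6 (−0.19), Adamts4 (−0.17) and Mmp12 (−0.41). Without LY500307+PD-1 replicate 2, Timp3 was at −0.31, Mmp2 at 0.14, Adam10 at −0.04, Adamts6 at −0.11, Adamts4 at −0.35 and Mmp12 at 0.05. Mmp12 was also at 0.05 without PD-1 replicate 3, so either library set its sign. Without PD-1 replicate 1, Mmp28 was at 0.08, Adam9 at 0.01 and Mmp2 at 0.11, and without PD-1 replicate 3, Adamts4 was at −0.04. LY500307+PD-1 replicate 2 also set the sign for Mmp9, with a log2 fold change of 0.24 with it and −0.67 without it, and for Timp1, with 0.05 and −0.36.

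Genes that act with these proteases were counted from 5 lists: activators and cell-surface control of MMPs, matrix substrates, shed substrates, sheddase partners, and other astacins and metzincins. Of 66 genes listed, 55 were tested, and 0 passed the adjusted threshold in any comparison. In PD-1 versus control 18 had a log2 fold change above 0 and 37 below, in LY500307+PD-1 versus control 20 and 35, and in LY500307+PD-1 versus PD-1 26 and 29. Of all genes tested, 48.3%, 49.4% and 51.0% were above 0. At an unadjusted p under 0.05, 1 was higher and 0 lower in the first comparison, 2 higher and 3 lower in the second, and 2 higher and 1 lower in the third. Over all genes tested, 2.44%, 4.01% and 2.84% passed that p in either direction.

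The matrix substrates are collagens, fibronectin, proteoglycans and other matrix proteins. All 13 tested of 16 listed had a log2 fold change below 0 in PD-1 versus control (median −0.16 beside −0.01 over all genes tested). Of these, 0 passed an unadjusted p under 0.05 in limma. Mean FPKM was not lower under PD-1 for Col1a2 (78.8 in both groups), Col3a1 (62.8 against 57.7 in control) or Eln (1.89 against 1.85). For the other tested genes the mean was lower. Col1a1 stood at 117, 352 and 185 FPKM under PD-1 and 233, 263 and 204 in control. No values with a library left out are given for these lists. In LY500307+PD-1 versus control 11 of 13 were below 0 (median −0.19), and in LY500307+PD-1 versus PD-1 7 of 13 were (median −0.01). The 10 fibroblast markers, of which 9 were at 1 FPKM or more in every library and none at 0 throughout, summed to 395 to 503 FPKM in control, 242 to 671 under PD-1 and 337 to 705 under LY500307+PD-1. Both lists hold Col1a1, Col1a2, Col3a1, Dcn and Lum. The part of fibroblasts in the matrix genes was not tested. The substrates shed by ADAMs split 11 above and 4 below 0 in PD-1 versus control, 9 and 6 in LY500307+PD-1 versus control, and 5 and 10 in LY500307+PD-1 versus PD-1 (medians 0.04, 0.03 and −0.04). Of the activators, 5, 9 and 10 of 19 were above 0 in the 3 comparisons (medians −0.10, −0.05 and 0.01). Of 6 sheddase partners tested, 1, 0 and 4 were above 0 (medians −0.07, −0.06 and 0.03). Of the other astacins and metzincins, 2 were tested, Bmp1 and Adamdec1, of which 1, 0 and 1 were above 0 (medians 0.08, −0.58 and −0.66). Adamdec1 ran from 0.098 FPKM in control replicate 2 to 12.3 FPKM in control replicate 1.

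The listed gene with the smallest p-value was Plaur, the receptor that holds the plasminogen activator urokinase at the cell surface, where plasmin can activate pro-MMPs. It stood at 28.7, 29.5 and 25.8 FPKM in control, 36.1, 32.5 and 41.0 under PD-1, and 34.0, 34.8 and 34.1 under LY500307+PD-1, every treated library above every control. Its log2 fold change was 0.37 in PD-1 versus control (unadjusted p = 0.00738, adjusted p = 1 with limma) and 0.29 in LY500307+PD-1 versus control (unadjusted p = 0.0252). In these 2 comparisons, 6.68% and 7.94% of all genes tested had groups that did not overlap. The share with all treated libraries on one side of control was not counted. In PD-1 versus control the groups were also apart for the activator Furin and the sheddase partner Frmd8, both lower (log2 fold change −0.35 and −0.21). The basement membrane collagen Col4a2 stood at 68.8, 65.7 and 66.6 FPKM in control, 55.1, 57.5 and 68.5 under PD-1, and 52.2, 55.7 and 54.3 under LY500307+PD-1. The LY500307+PD-1 libraries lay below control, with a log2 fold change of −0.31 (unadjusted p = 0.0141 with limma). Its partner chain Col4a1 had −0.32 (unadjusted p = 0.0217 with limma). Spp1 was the other of 3 matrix substrates lower at an unadjusted p under 0.05 in this comparison. It stood at 2614, 1934 and 2596 FPKM in control, 2584, 2025 and 2146 under PD-1, and 1784, 973 and 1862 under LY500307+PD-1. Those 3 were also the matrix substrates whose groups did not overlap. The endothelial markers, whose cells make basement membrane, summed lower in the same libraries, as given above. Their part in the values of Col4a1 and Col4a2 was not tested.

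Several MMPs and Adam8 were set against markers of cells known to make such proteases. A set of 10 relations between a gene, as log2(FPKM + 1), and a marker score, the mean deviation of a marker list on the log2 scale, were computed over the 9 libraries, each with an exact two-sided permutation test and Benjamini-Hochberg adjustment over the 10. Mmp8 correlated with the score of the 7 neutrophil markers (Pearson r = 0.87, exact permutation p = 0.00265, adjusted 0.0201, Spearman rho = 0.83, exact p = 0.00827, adjusted 0.0827). The gelatinase Mmp2 followed the 10 fibroblast markers by Pearson r (0.86, exact permutation p = 0.00402, adjusted 0.0201) but not by rank (Spearman rho = 0.58, exact p = 0.108, adjusted 0.270). Mmp11 ran against the same markers (r = −0.81, exact permutation p = 0.00848, adjusted 0.0283, rho = −0.73, exact p = 0.0311, adjusted 0.104). With group means removed, r was 0.91 for Mmp8, 0.89 for Mmp2 and −0.97 for Mmp11.

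None of these relations passed without the 2 libraries farthest from the median marker score. For Mmp8, PD-1 replicate 3 and LY500307+PD-1 replicate 2 were left out, and r was 0.60. For Mmp2 and Mmp11, PD-1 replicate 1 and LY500307+PD-1 replicate 2 were left out, and r was 0.52 and −0.52. Leaving out the libraries farthest from the median also narrows the range of the marker score, which by itself can lower r. The smaller r therefore cannot show whether the relations rest on those libraries. The neutrophil markers themselves summed to 188 to 269 FPKM in control, 107 to 710 under PD-1 and 61.4 to 386 under LY500307+PD-1, with the lowest sum in LY500307+PD-1 replicate 2 and the highest in PD-1 replicate 3. Of these 7 markers, 6 were at 1 FPKM or more in every library, and Ly6g ran from 0 to 0.49 FPKM. Csf3r was highest in control replicate 3 (15.3 FPKM), Ly6g in PD-1 replicate 2 and the others in PD-1 replicate 3.

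The other 7 relations did not pass the adjusted threshold. Mmp9 with macrophage markers had r = −0.73 (exact permutation p = 0.0367, adjusted 0.0918) and rho = −0.78 (exact p = 0.0172, adjusted 0.0861). Mmp9 with neutrophil markers had r = −0.50 and rho = −0.48, and Adam8 with neutrophil markers had r = 0.49 and rho = 0.52. With macrophage markers, r was 0.19 for Mmp12 and 0.29 for Mmp14. With fibroblast markers, r was −0.01 for Mmp3 and 0.19 for Mmp13. Adjusted p-values of these 6 ran from 0.310 to 0.982 for r (exact permutation tests).

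**Figure D5:**
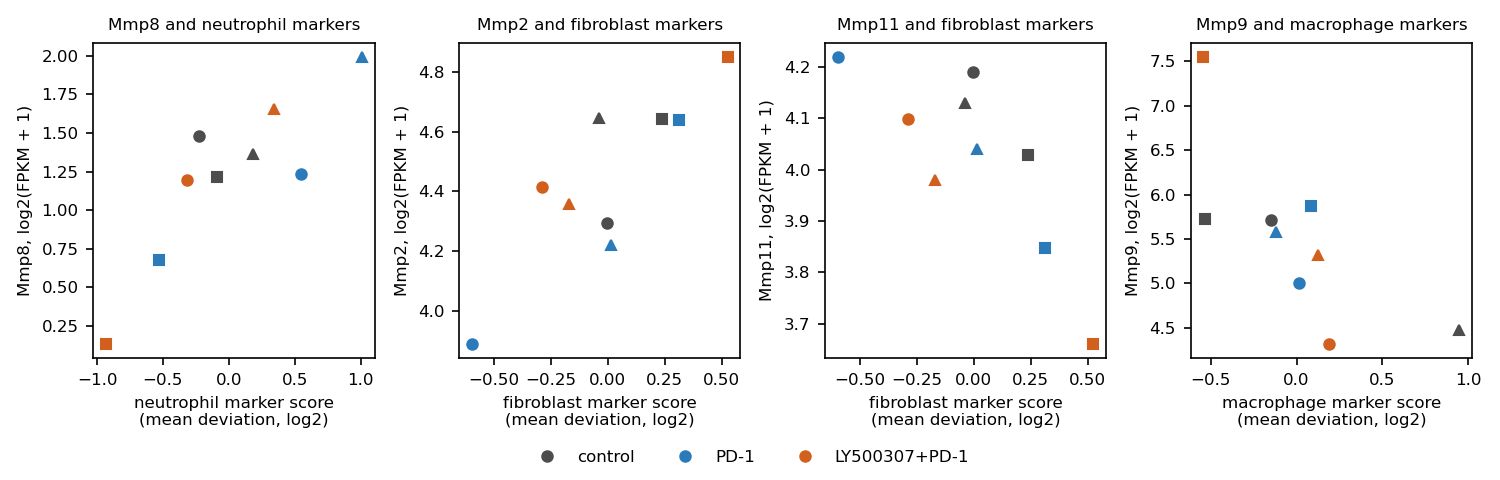
Level of Mmp8, Mmp2, Mmp11 and Mmp9 as log2(FPKM + 1) against the score of a marker list (mean deviation on the log2 scale) in the 9 libraries, coloured by group. LY500307+PD-1 replicate 2 lies at an end of each marker score shown.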

How the data were processed

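Per the labels' protocols, Trizol RNA of 9 samples was cleared of ribosomal RNA and sequenced from a stranded total RNA kit. The values the authors deposited are taken as FPKM, a unit inferred from the values: the lowest values fall as transcript length rises. CASAVA 1.8, Bowtie2, DESeq2 and the build mm9 appear in the submitters' processing notes without their roles. Which counting tool, annotation and strand setting were used is not given in the sources used here. Low values pointed to about 8224000 to 8710500 fragments per library, but only 8.71% to 21.6% of values fell within 0.02 of a whole fragment, so counts were not recovered and count models were not run.

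Groups came from the sample titles, although the treatment labels of PD-1 replicates 2 and 3 read PD-2 and PD-3. Symbols and positions came from GENCODE M21 (GRCm38), which named 52403 of 52550 rows, and promoters from RefSeq. The 13990 genes that reached 1 FPKM in 3 or more libraries were fitted as log2(FPKM + 1) with limma 3.58.1 in R 4.3.3, with trend and robust moderation, all 9 libraries and no covariate, with calls at an adjusted p (Benjamini-Hochberg) under 0.05. A fold change on this scale understates the change of low genes. The fit was tested on simulated data. Marker relations used Python 3.11.15 with exact permutations.

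Named genes were the 20 highest by mean, every Timp, in each comparison those at an unadjusted p under 0.05 or else the 10 with the smallest p, those whose groups did not overlap, and 16 genes named throughout. For the other lists the rule was up to 3 genes with the smallest p, but further genes of those lists are named. Itgav and Cdh1 of those lists also passed an unadjusted p under 0.05 (limma) in a comparison without being described above. The genes, lists and rules were chosen with earlier results of these data known. Each fit was repeated with a pseudocount of 0.1, without the filter, after quantile normalization, with a replicate block, with only the 6 libraries of the groups compared, and without each library in turn.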

Additional observations from a re-analysis of the deposited data

How the results depend on the processing

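No alternative brought any of these genes past an adjusted p under 0.05 in limma: 0 were called in each of the 14 alternatives of each comparison, with between 1 and 3, 1 and 4, and 0 and 2 at an unadjusted p under 0.05. Of 90 log2 fold changes of 30 named genes, 52 changed sign when some library was left out, none of them called and the largest 0.42 in size, and 0 changed sign under the other settings. Ranking by the median in place of the mean kept 19 of the 20 highest genes. Over all genes tested, leaving out 1 library gave 0 to 1 called genes in PD-1 versus control, 0 to 2 in LY500307+PD-1 versus control and 0 to 2 in LY500307+PD-1 versus PD-1, and the cause was not tested. The median log2 fold change of the tested genes ran from −0.09 to 0.05, −0.09 to 0.07 and −0.03 to 0.05 with a library left out, and from −0.03 to −0.01, −0.03 to −0.02 and 0.00 to 0.02 under the other settings. Without the 2 libraries farthest from the median marker score, r was 0.60 for Mmp8, 0.52 for Mmp2 and −0.52 for Mmp11, and it changed sign for Mmp12 with macrophage markers (−0.41) and Mmp14 (−0.08), neither of which was called. With fewer libraries and a narrower range of marker scores those tests also have less power.

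The replicate numbers were not taken as pairs in the main fit. Deviations of libraries with the same number correlated at −0.12 to 0.27 (median 0.09, 3 of 9 pairs over 0.1). Those of libraries with other numbers correlated at −0.36 to 0.26 (median −0.02, 3 of 18 pairs over 0.1). In 12 of 18 cases a library correlated best with its own number. These values lean towards the same numbers, so they are no ground for leaving the pairs out, and a fit with a replicate block is given beside them. With a replicate block, 0 of the genes described and 0 of all genes tested were called in each comparison, and Adamts14 had log2 fold changes of 0.71 and 0.89 against control. With 3 libraries per group, a standard error of 0.20 for Adamts14 limits what differences could be called, and the wide intervals of Mmp9, Mmp3 and Mmp10 come with their spread within groups.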
